A study of Mus musculus with 9 samples.

Results

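Histone genes were followed over 3 time points in NSCs differentiated from mouse ESCs, sorted after 4.5, 5.5 or 6.5 days of differentiation (4.5DDC, 5.5DDC and 6.5DDC). All symbols that begin with Hist1h, Hist2h, Hist3h or Hist4h were taken as clustered, replication-dependent histone genes, and all that begin with H1f, H2af or H3f3 as variant histone genes. This gave 89 of 38197 symbols, of which 70 were clustered and 19 variant. Of the clustered genes, 56 lie on chromosome 13, in the large cluster except for the pseudogene Hist1h2al, 10 on chromosome 3, 3 on chromosome 11 and 1 on chromosome 6. All 3 groups of cells had the same wild-type genotype and strain 129 background, received retinoic acid (RA) and SAG, an agonist of the Shh transducer Smo, in monolayer from the start of differentiation (until 3DDC per the labels, with a slightly later change of medium in the study's methods), and were sorted with magnetic beads for Prominin-1, which neural progenitors carry on their surface. By the labels they differed only in the time of sorting, and so in the time since RA and SAG ended, with 3 libraries per time point. Apart from genetically altered lines, the paper names a single ESC line, E14.1. The labels do not say whether the replicates were separate cultures, so p-values measure the spread between these libraries, part of which may be technical. Polyadenylated RNA was selected before sequencing, and no library made without that selection was analysed here.

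Nucleosomes are built from pairs of the core histones H2A, H2B, H3 and H4, and linker histone H1 binds the DNA between them. Clustered histone genes are transcribed mainly in S phase, when new DNA has to be packed, and their mRNAs usually end shortly after a stem-loop that is bound by SLBP instead of carrying a poly(A) tail. Variant histones are made throughout the cell cycle from ordinary polyadenylated mRNAs, and are placed at particular sites by their own chaperones. A number of clustered genes can also give polyadenylated, longer mRNAs, and these are known from differentiating cells.

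The stem-loop was found in the annotated transcripts of 46 clustered genes and of 1 variant gene, H2afx, which is known to make both a stem-loop mRNA and a polyadenylated mRNA. It is 16 bases long, with 6-base stems in lower case and the 4 loop bases in capitals below. The first sequence was shared by 26 genes, among them all 4 stem-loop genes of the clustered class with enough counts for a test (Hist1h1c, Hist1h2be, Hist3h2a and Hist3h2ba). The second was the most frequent in H4 genes (7 genes), the third was found in 6 genes including Hist1h3c, and the last in H2afx alone.
Hist3h2a, Hist3h2ba and 24 others: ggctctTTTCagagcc
Hist1h4d and 6 others: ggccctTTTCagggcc
Hist1h3c and 5 others: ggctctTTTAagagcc
H2afx: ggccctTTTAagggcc
In GENCODE M21 on GRCm38 these lie at chr11:58955172-58955187 for Hist3h2a and chr11:58949349-58949364 for Hist3h2ba, both on the plus strand, and at chr9:44335240-44335255 on the plus strand for H2afx. The annotated transcripts run on for 1643, 169 and 822 bases past it.

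Clustered histone genes gave few counts in these libraries, and variant genes gave many. Over the 9 libraries, which held between 11066572 and 25506192 counts each, all 70 clustered genes together gave 4880 counts and the 19 variant genes gave 264553. As CPM (counts scaled to a common library total), the clustered genes summed to 26.6 ± 3.13 (SD, n = 3) at 4.5DDC, 34.2 ± 7.43 at 5.5DDC and 43.3 ± 4.40 at 6.5DDC. The variant genes summed to 1889 ± 113 CPM, 1936 ± 21.7 CPM and 1957 ± 104 CPM (SD, n = 3). The clustered sum at 6.5DDC (39.6 to 48.2 CPM) did not overlap the one at 4.5DDC (24.7 to 30.2 CPM), whereas the variant sums overlapped. In FPKM, which is scaled to length, the clustered sums of the 3 time points overlapped, at 25.1 to 39.8, 38.7 to 59.8 and 32.8 to 50.4. CPM does not correct for length, so these sums compare each class with itself over time. Variant CPM was between 38.2 and 79.1 times the clustered CPM in a library.

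Most clustered genes fell below what could be tested. No count was found in any library for 21 of them, which allows up to 3 counts, or 0.118 to 0.271 CPM depending on the library and for counting error only. A further 30 had 1 to 10 counts over all 9 libraries, 14 had 11 to 100, and 5 had more. The filter on low counts kept 6 clustered genes, Hist1h1c, Hist1h2bc, Hist1h2be, Hist2h2be, Hist3h2a and Hist3h2ba, which held 4376 of the 4880 counts. None of the 12 H3 and 13 H4 genes passed, with 54 and 94 counts in all. Among the variants 11 passed, and the other 8 had 50 counts together: the germ cell linker histones H1foo and H1fnt, H2afb1, H2afb2-ps, H2afb3-ps, and the H3f3a-like copies H3f3c, H3f3a-ps1 and H3f3a-ps2.

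Counts differed with the annotated 3′ end. Genes were placed by the annotated transcript that runs furthest past the stem-loop, which is the longest one except in Hist1h2bp and Hist1h2be. Of 23 clustered genes whose transcript ends within 100 bases of the stem-loop, none passed the filter, and the highest, Hist1h2bp, had 24 counts in all. Hist1h2bp also has a longer annotated transcript, of 621 bases in 2 exons, and a poly(A) signal in at least 1 transcript. Of 23 whose transcript runs further, 4 passed, with a total of 3401 counts and a median of 14 per gene against 1 in the first set. Counts are not scaled to length, and the longest transcripts have 539 to 7425 bases in this set against 391 to 630 in the first. In FPKM, the middle genes of both sets were close, with Hist1h2ac at 0.161 in this set and Hist1h2ad at 0.1285 in the first. The part of length in the counts was not tested. The remaining 21 protein-coding genes had no stem-loop of the searched form in any annotated transcript. In 15 of them the longest transcript is 500 bases or shorter, about the length of a coding sequence. Hist2h2be and Hist1h2bc, both H2B genes, were the 2 that passed among them, and the annotated transcript of Hist2h2be is 2620 bases long. A poly(A) signal (the hexamer AATAAA or its common variant ATTAAA) lay in the last 60 bases of at least 1 transcript of 17 clustered genes, including 5 of the 6 that passed. With polyA selection in all 9 libraries, a low level of an mRNA and the lack of a tail cannot be told apart. The sets also differed in the share of their sequence found in no other gene (in windows of 50 bases), with medians of 39.6% where the transcript ends at the stem-loop, 75.4% where it runs further and 14.2% where it holds no stem-loop, and the part of this in the counts was not tested.

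**Figure D1:**
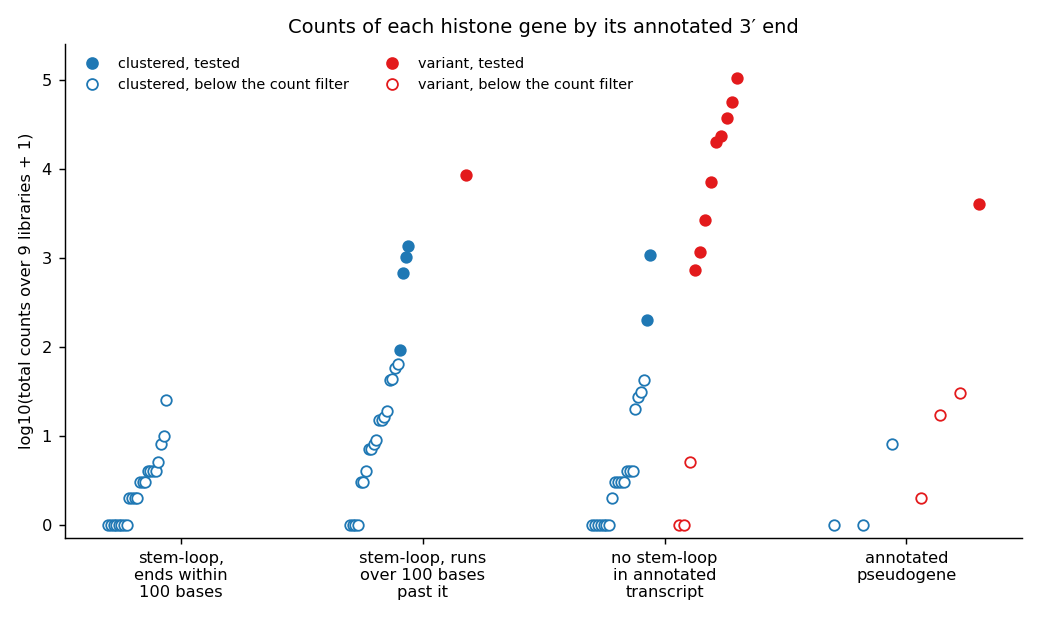
Total counts of each histone gene over 9 libraries, as log10(total + 1), grouped by the annotated 3′ end of the transcript that runs furthest past the stem-loop (blue, clustered; red, variant; filled, tested; open, below the count filter). No clustered gene whose transcript ends within 100 bases of the stem-loop exceeds 24 counts, and 2 variant genes not in the annotation, both at 0, are not drawn.

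The levels of single clustered genes per length were likewise low. FPKM (reads scaled to transcript length and library size, estimated by the authors with Cufflinks) averaged 1 or more over the 9 libraries in 6 clustered and 14 variant genes. Hist3h2ba, an H2B gene, had the highest clustered mean at 11.3 FPKM. It was followed by Hist3h2a, an H2A gene, at 5.61, by Hist3h2bb-ps at 4.71 and by Hist1h1c, which encodes linker histone H1.2, at 3.86 FPKM. The leading H3 genes, Hist2h3c1 and Hist1h3c, averaged 0.374 and 0.141 FPKM, and the leading H4 genes, Hist1h4d and Hist1h4i, averaged 0.340 and 0.317 FPKM. Next to Hist1h1c, the H1 gene with the most was Hist1h1e at 0.420 FPKM, and next to Hist3h2a the H2A gene with the most was Hist1h2ao at 0.735 FPKM, although Hist1h2ao had 0 counts in all libraries. In all, 20 of the 21 clustered genes without a count had an FPKM above 0 on average.

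Many histone genes have near-identical copies. Each transcript was split into 50-base windows, the length of the reads, and a window was called unique if no other annotated gene held it on either strand. The median clustered gene had 45.5% unique windows and the median variant gene 86.0%. Hist2h2aa1, Hist2h2aa2, Hist2h2bb, Hist2h3b and Hist2h3c1 had none. Other annotated genes overlap 100% of the exon bases of each at its own place, on the same strand for Hist2h3c1 and on the opposite strand for the others. Windows shared with such overlapping genes were called not unique, as were those shared with copies elsewhere. A count was found for 4 of 13 clustered genes with under 10% unique windows, against 29 of 34 with at least 50%, and all 6 tested genes were among the latter. How reads with several positions were treated in the counts is not given in the sources used here.

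Counts and FPKM differed widely in several genes with copies. One FPKM of a transcript that is counted over its whole length corresponds to 1 CPM per kilobase, so CPM divided by FPKM gives the length over which reads were in effect counted. H1f0, H2afx, H2afy2, H2afy3 and H2afj gave lengths between 99.2% and 135% of the longest annotated transcript, where values over 100% can arise because counts and FPKM use different totals. H3f3b gave 53.3%, H2afz 9.44% and H3f3a 3.52%. H2afv and H2afy, with all windows unique, gave 33.9% and 40.3%. The percentage is taken of the longest annotated transcript, and H2afy has 8 transcripts and H2afv 2. H3f3a thus had 523 FPKM and 52.3 CPM on average, while H3f3b, which encodes the identical H3.3 protein, had 554 FPKM and 742 CPM. H3f3c, H3f3a-ps2 and H3f3a-ps1, annotated as processed pseudogenes, had 208, 159 and 112 FPKM with 1, 16 and 29 counts in all 9 libraries, and the clustered Hist3h2bb-ps had 7 counts and a counted length of 2.2%. Their reads and those of H3f3a, which shares windows with 41 other genes, cannot be told apart where the windows are shared. H3f3a also overlaps Gm17275 and H3f3aos on the opposite strand over 22.8% of its exon bases. In H2afz 30.4% of windows were unique, with 620 windows also in Tmcc1.

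**Figure D2:**
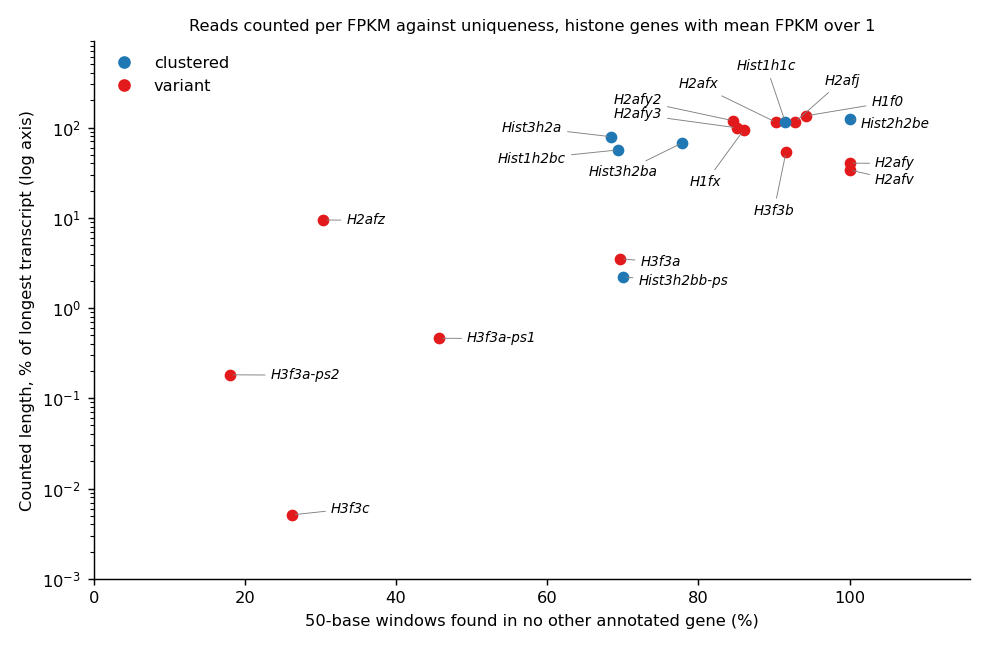
Counted length (CPM divided by FPKM, as a percentage of the longest annotated transcript, log axis) against the share of 50-base windows found in no other annotated gene, for the histone genes with a mean FPKM of at least 1. H3f3c, H3f3a-ps1, H3f3a-ps2 and H2afz lie at the lower left, and H3f3a and Hist3h2bb-ps lie below the other genes of like uniqueness.

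From 4.5DDC to 6.5DDC, the tested clustered genes that changed rose and most of the variants that changed fell. Tests used edgeR's quasi-likelihood model on all 14742 genes that passed the filter, with Benjamini-Hochberg adjustment over all of them. In this comparison 18.7% of all genes were called at an adjusted p under 0.05, 9.21% higher and 9.53% lower. Of the 6 clustered genes 2 were higher and none lower, and all 6 had a log2 fold change above 0, as had 50.2% of all genes, with a median of 0.51. In a fit without the filter on low counts, 18 of 49 clustered genes lay above 0 and 31 below, with a median of -0.062, and 2 were called higher. Of the 11 variants 1 was higher and 4 were lower, with a median of -0.46. The median over all genes was 0.0040. The libraries are bulk samples, so fewer cells of a type and less RNA per cell cannot be told apart.

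**Figure D3:**
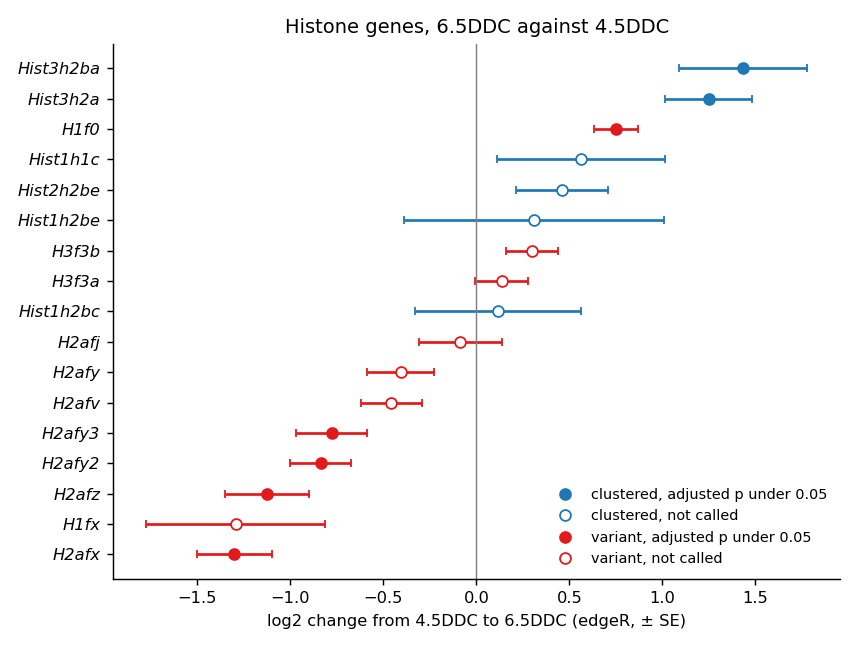
Log2 change from 4.5DDC to 6.5DDC of the 17 tested histone genes, with bars for the SE (n = 3 libraries per time point; blue, clustered; red, variant; filled, adjusted p under 0.05 in edgeR). All 6 clustered genes lie above 0, 8 of 11 variants lie below 0, and the SE of Hist1h2be, Hist1h2bc, Hist1h1c and H1fx is larger than that of the others.

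The 2 clustered genes that rose are neighbours on chromosome 11, away from the large cluster. Hist3h2ba lies at chr11:58948920-58949533 and Hist3h2a at chr11:58954685-58956830, each a single exon on the plus strand, with Hist3h2bb-ps between them on the minus strand at chr11:58954048-58954512. Hist3h2a had 7.49, 5.35 and 5.46 CPM (scaled by TMM, as are all CPM of single genes below) in replicates 1, 2 and 3 at 4.5DDC, 9.32, 7.99 and 6.45 at 5.5DDC and 14.3, 16.3 and 13.1 at 6.5DDC. All libraries of 6.5DDC lay above all others. Over the whole span the log2 fold change was 1.25 (SE 0.23, edgeR adjusted p = 0.0077), and FPKM rose from 3.84 ± 1.098 to 7.68 ± 0.375 (SD, n = 3).

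Hist3h2ba had 3.11, 2.28 and 1.75 CPM at 4.5DDC, 6.47, 4.25 and 4.84 at 5.5DDC and 7.04, 4.22 and 8.19 at 6.5DDC. The libraries of 4.5DDC lay below all others, and those of 5.5DDC and 6.5DDC overlapped. The log2 fold change over the whole span was 1.44 (SE 0.35, edgeR adjusted p = 0.020), from 24 to 56 counts per library at 4.5DDC to between 69 and 135 at 6.5DDC. It lost its call without 4.5DDC replicate 2, 4.5DDC replicate 3 or 6.5DDC replicate 3, with log2 fold changes of 1.40, 1.25 and 1.23, in fits that called 7.61%, 13.4% and 13.9% of all genes. In limma on log2(FPKM + 0.1), which called 14.7% of all genes, Hist3h2a was called and Hist3h2ba was not (adjusted p = 0.053).

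Both genes have partners that share part of their sequence. Trim17, on the same strand, covers 33.0% of the exon bases of Hist3h2a and shares 660 of its 2097 windows. It had 4.11 ± 1.62, 6.62 ± 0.808 and 5.79 ± 1.66 CPM (SD, n = 3) at the 3 time points, with a log2 fold change of 0.48 (edgeR adjusted p = 0.33) over the whole span. Hist3h2ba shares 125 of its 565 windows with Hist3h2bb-ps, which had 7 counts in all but 2.93 ± 1.10, 5.98 ± 1.96 and 5.202 ± 2.76 FPKM (SD, n = 3). The part of these partners in the results was not tested.

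Because these neighbours both rose over the whole span, their promoters are given below, from RefSeq on GRCm38.p6, 250 bases before to 50 bases after the annotated start, together with that of H2afz, which fell. Sequences are on the plus strand, with capitals for 3 motifs searched on either strand, namely the CCAAT box (CCAAT), the TATA box (TATAAA) and the octamer (ATTTGCAT). The windows are chr11:58954435-58954734 for Hist3h2a, chr11:58948661-58948960 for Hist3h2ba and chr3:137864237-137864536 for H2afz.
Hist3h2a: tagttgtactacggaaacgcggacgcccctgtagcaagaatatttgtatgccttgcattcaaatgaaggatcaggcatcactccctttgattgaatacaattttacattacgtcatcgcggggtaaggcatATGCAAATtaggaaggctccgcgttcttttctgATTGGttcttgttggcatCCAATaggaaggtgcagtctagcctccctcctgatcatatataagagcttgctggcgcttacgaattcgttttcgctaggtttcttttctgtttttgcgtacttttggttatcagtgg
Hist3h2ba: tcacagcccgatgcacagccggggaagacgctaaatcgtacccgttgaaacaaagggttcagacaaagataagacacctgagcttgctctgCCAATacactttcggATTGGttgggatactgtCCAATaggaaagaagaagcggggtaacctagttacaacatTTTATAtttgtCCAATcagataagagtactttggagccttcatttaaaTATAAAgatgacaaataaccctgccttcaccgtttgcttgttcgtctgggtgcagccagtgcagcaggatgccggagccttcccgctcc
H2afz: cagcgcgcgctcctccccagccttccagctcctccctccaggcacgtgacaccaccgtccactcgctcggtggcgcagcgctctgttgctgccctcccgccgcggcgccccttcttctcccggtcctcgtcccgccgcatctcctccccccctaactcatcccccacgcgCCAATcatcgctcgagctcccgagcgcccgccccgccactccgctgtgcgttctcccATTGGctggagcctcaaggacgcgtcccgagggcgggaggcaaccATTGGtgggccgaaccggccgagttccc
CCAAT occurred 2 times in Hist3h2a, 4 times in Hist3h2ba and 3 times in H2afz. TATAAA occurred 2 times in Hist3h2ba only, 1 of them on the minus strand (printed as TTTATA). ATTTGCAT, known from H2B promoters, occurred 1 time in Hist3h2a only. Only exact matches were searched, so near forms, such as tatataag in the Hist3h2a promoter, were not counted. Among the 62 clustered promoters of the table, 85.5% held CCAAT, 56.5% TATAAA and 22.6% ATTTGCAT. The shares were 64.3%, 7.1% and 7.1% of 14 variant promoters and 37.4%, 13.6% and 1.7% of all 32851 promoters. ATTTGCAT was found in 41.2% of the H2A and 41.2% of the H2B promoters and in no clustered H1, H3 or H4 promoter, and CCAAT was in all clustered H1, H2A, H2B and H3 promoters but in 25% of those of H4. These matches are descriptions of the sequence, not of binding.

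The other 4 tested clustered genes were not called in any comparison. Hist2h2be had 5.61, 5.00 and 8.66 CPM at 4.5DDC, between 7.43 and 8.92 at 5.5DDC and between 8.55 and 9.33 at 6.5DDC, with a log2 fold change of 0.46 (SE 0.25, edgeR adjusted p = 0.21). Hist1h1c, the linker histone gene, had 7.66, 4.83 and 4.44 CPM at 4.5DDC, 11.2, 3.74 and 5.46 at 5.5DDC and 12.5, 5.56 and 7.10 at 6.5DDC, so that replicate 1 was the highest at every time point (log2 fold change 0.56, SE 0.45, edgeR adjusted p = 0.40). Hist1h2bc and Hist1h2be stayed under 3 CPM in all libraries, with SE of 0.45 and 0.70, which limits what could be detected. The 64 clustered genes below the filter summed to 4.17 ± 0.866, 3.78 ± 1.02 and 3.11 ± 0.492 CPM (SD, n = 3) at the 3 time points and their ranges overlapped, so the higher clustered sum at 6.5DDC lay in the tested genes.

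**Figure D4:**
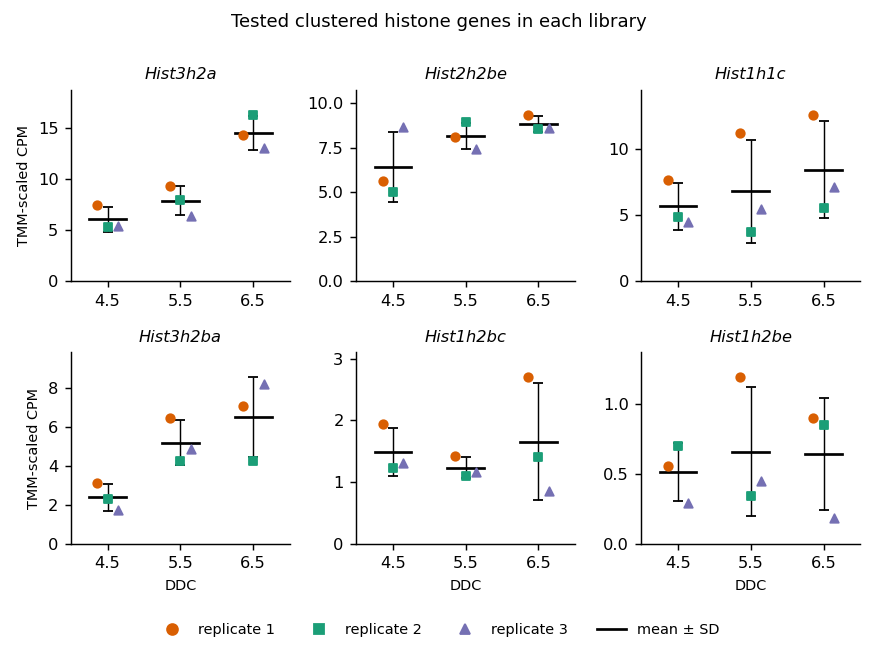
TMM-scaled CPM of the 6 tested clustered histone genes in each of 9 libraries (symbols, replicates; line and bar, mean ± SD, n = 3; each panel has its own axis from 0). Hist3h2a at 6.5DDC lies above all other libraries, Hist3h2ba at 4.5DDC below all others, and replicate 1 is the highest for Hist1h1c at each time point.

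Among the linker histone variants, H1f0 rose. It encodes H1.0, which is known to accumulate in cells that leave the cell cycle. H1f0 had 322, 292 and 283 CPM at 4.5DDC, 440, 412 and 403 at 5.5DDC and 471, 550 and 489 at 6.5DDC. The 3 time points did not overlap, with a log2 fold change of 0.75 (SE 0.12, edgeR adjusted p = 0.0044) over the whole span, and in FPKM it went from 107 ± 10.04 to 181 ± 15.7 (SD, n = 3). H1fx, which encodes linker histone H1.10, had 9.66, 13.3 and 3.78 CPM at 4.5DDC and 3.27, 2.38 and 5.22 at 6.5DDC. The groups overlapped, and the log2 fold change of -1.29 (SE 0.48) had an edgeR adjusted p of 0.088. It was called without 4.5DDC replicate 3, with a log2 fold change of -1.66, in a fit that called 13.4% of all genes. DESeq2 on all 9 libraries, which called 24.9% of all genes, also called it (-1.28, adjusted p = 0.038).

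H2afx and H2afz fell the most among the called variants. H2afx encodes H2A.X, which is phosphorylated around DNA breaks. It had 81, 92.2 and 76.2 CPM at 4.5DDC, 66.4, 72.1 and 81.9 at 5.5DDC and 44.9, 25.9 and 30.5 at 6.5DDC. The libraries of 6.5DDC lay below all others, and the log2 fold change over the whole span was -1.30 (SE 0.20, edgeR adjusted p = 0.0040). Between libraries of the same number, which are not paired over this span, it was -0.85 for replicate 1 and -1.83 and -1.32 for replicates 2 and 3.

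H2afz encodes H2A.Z.1, found at promoters and enhancers. It had 23.8, 30.9 and 30.6 CPM at 4.5DDC, 13.6, 20.4 and 20.9 at 5.5DDC and 13.5, 14.9 and 10.6 at 6.5DDC. The libraries of 4.5DDC lay above all others, and the log2 fold change was -1.13 (SE 0.23, edgeR adjusted p = 0.010). In FPKM, H2afz went from 293 ± 58 to 127 ± 19.5 (SD, n = 3). H2afv, which encodes the closely related H2A.Z.2 and whose windows were all unique, had 156 ± 17.4 CPM at 4.5DDC and 114 ± 20.0 at 6.5DDC (SD, n = 3). Its log2 fold change of -0.46 (SE 0.16) had an edgeR adjusted p of 0.077, and it was called without 6.5DDC replicate 1 (-0.61), where 20.7% of all genes were called, and in replicates 2 and 3 alone (-0.60), where 31.3% were. Whether the changes of H2afz and H2afv differed was not tested.

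Of the macroH2A genes, which encode a large H2A variant with a globular tail domain linked to silent chromatin, H2afy2 fell. H2afy2 had 196, 255 and 194 CPM at 4.5DDC, 155, 194 and 200 at 5.5DDC and 114, 110 and 136 at 6.5DDC. The libraries of 6.5DDC lay below all others (log2 fold change -0.84, SE 0.16, edgeR adjusted p = 0.0089). Aifm2 overlaps 10.7% of its exon bases on the opposite strand and was higher at 6.5DDC (log2 fold change 1.51, edgeR adjusted p = 0.049). H2afy3, annotated as a processed pseudogene that shares 142 of its 1063 windows with H2afy2, had 34.7, 45.2 and 35.8 CPM at 4.5DDC and 19.6, 22.5 and 25.4 at 6.5DDC. Its log2 fold change was -0.78 (SE 0.19, edgeR adjusted p = 0.023), a call that was lost without 4.5DDC replicate 2 (-0.65) or 6.5DDC replicate 2 (-0.78), where 7.61% and 7.57% of all genes were called. H2afy3 also overlaps Pvt1 on the opposite strand over 9.8% of its exon bases, and Pvt1 had 7 to 34 counts per library. H2afy, the other macroH2A gene, had 310 ± 51.0 CPM at 4.5DDC and 233 ± 14.9 at 6.5DDC (SD, n = 3). Its groups did not overlap, but its log2 fold change of -0.41 (SE 0.18) had an edgeR adjusted p of 0.14. In replicates 2 and 3 alone it was called (-0.53, edgeR adjusted p = 0.023).

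The H3.3 genes and H2afj were not called. H3f3b, with the highest mean of all histone genes in CPM and in FPKM (in FPKM, its ratio to H3f3a was 0.921 to 1.30 over the libraries), had 788, 636 and 686 CPM at 4.5DDC and 830, 938 and 826 at 6.5DDC (log2 fold change 0.30, SE 0.14, edgeR adjusted p = 0.16). H3f3a had 50.9, 48.8 and 56.4 CPM at 4.5DDC and 63.5, 58.9 and 49.2 at 6.5DDC, with a log2 fold change of 0.14 (SE 0.14, edgeR adjusted p = 0.53). H2afj, which encodes H2A.J, had between 4.31 and 6.58 CPM in all libraries, with a log2 fold change of -0.09 (SE 0.22). Over the whole span, the groups did not overlap for 2 clustered genes (both higher) and for 8 variants (2 higher, 6 lower), where 17.5% of all genes were higher and 17.6% lower without overlap.

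**Figure D5:**
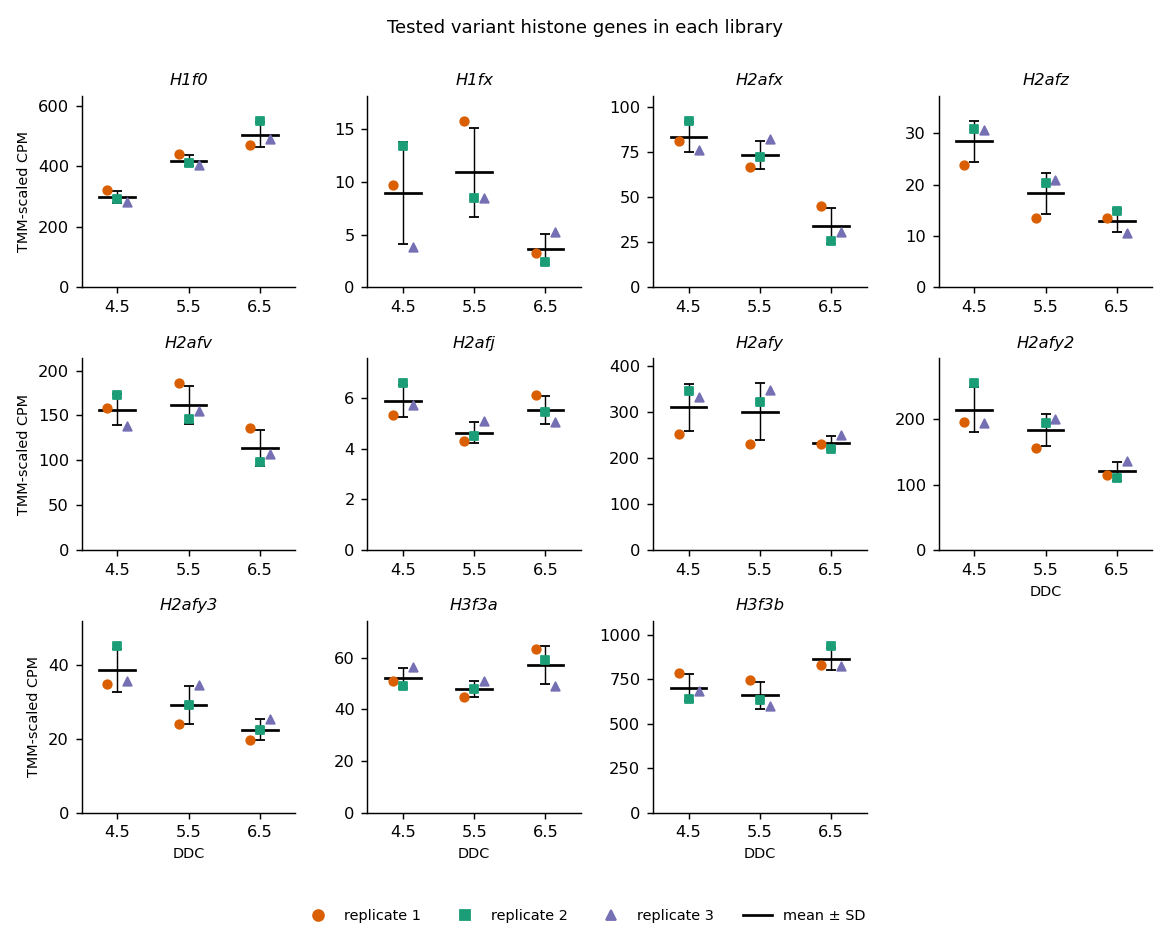
TMM-scaled CPM of the 11 tested variant histone genes in each of 9 libraries (symbols, replicates; line and bar, mean ± SD, n = 3; each panel has its own axis from 0). The 3 time points of H1f0 do not overlap, H2afx and H2afy2 at 6.5DDC lie below all other libraries, and the H3f3a libraries overlap.

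The shorter intervals gave no call among the tested histone genes in edgeR, where few genes of any kind were called. From 4.5DDC to 5.5DDC 0.0746% of all genes were called (0.0611% higher, 0.0136% lower), and from 5.5DDC to 6.5DDC 0.224% (0.0271% higher, 0.197% lower). At an unadjusted p under 0.05 there were 1 clustered and 2 variant genes in the first interval, and 1 clustered and 5 variant genes in the second, where 15.4% and 18.5% of all genes were under it. DESeq2 called 1 variant in the first interval (H1f0), and 1 clustered gene (Hist3h2a) and 3 variants (H1fx, H2afx and H2afy2) in the second, where it called 3.36% and 4.49% of all genes. The step of H2afx was the clearest in the second interval, at -1.12 (SE 0.20, edgeR adjusted p = 0.069) against -0.18 (SE 0.20) in the first. With the replicate number as a block, which called 1.32% of all genes in this interval, it was -1.14 (edgeR adjusted p = 0.043). It was also called without the filter on low counts, without 6.5DDC replicate 1 (-1.38) and in replicates 2 and 3 alone, where 0.337%, 1.29% and 4.98% of all genes were called. Hist3h2a moved by 0.38 (SE 0.23) in the first interval and 0.87 (SE 0.23) in the second, and Hist3h2ba by 1.12 (SE 0.34) and 0.31 (SE 0.33), none of them called in edgeR. The difference between the intervals was tested directly, and 0 of the 14742 genes (0%) were called in edgeR, with a lowest adjusted p among the members of 0.76.

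Genes of the cell cycle were lower at the end of the span, and so were part of the genes that act with histones. Of 27 S phase genes tested 26 had fallen by 6.5DDC (9.53% of all genes had) and none had risen, and their median log2 change was -1.66, against 0.51 for the 6 tested clustered histone genes. Over 49 clustered genes in the fit without the filter on low counts, the median was -0.062. The S phase genes with the lowest adjusted p were Uhrf1, which recruits maintenance DNA methylation (-2.36, SE 0.23, edgeR adjusted p = 0.00084), the DNA ligase Lig1 (-1.68, SE 0.17), the polymerase subunit Pole (-2.01, SE 0.22) and the helicase subunit Mcm7 (-1.62, SE 0.18). All 16 genes of G2 and M phase were lower too, against the same share, with a median of -1.18. Lig1, Uhrf1, Aurkb and Plk1, the last 2 being mitotic kinases, were also lower from 5.5DDC to 6.5DDC (edgeR adjusted p = 0.046 each), where 0.197% of all genes were. These calls were lost without replicate 2 or 3 of 5.5DDC and without replicate 2 or 3 of 6.5DDC, where 0 genes of any kind were called. Most of them were also lost without 4.5DDC replicate 1, where 1 of 14923 genes was called in this interval. Without 5.5DDC replicate 1, 4 of 14894 genes were called. No test compared these lists with the histone genes.

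Of 16 chaperones that hand new histones to replicating DNA, 10 were lower over the whole span (9.53% of all genes were) and none higher, with a median of -0.81. Chaf1b and Chaf1a, subunits of the CAF-1 complex that deposits H3 and H4 behind the fork, fell by 2.15 (SE 0.23) and 1.62 (SE 0.18) on the log2 scale. Tonsl, a reader of new H4, fell by 1.73, and Mcm2, a helicase subunit that also binds histones, fell by 1.37. Of 18 genes for the placement of variants, 9 were lower and none higher (median -0.63), again where 9.53% of all genes were lower. Among these were genes that serve centromeric chromatin, Hjurp (-1.07, SE 0.14), Mis18a (-1.52, SE 0.22) and the centromeric H3 variant Cenpa itself (-1.04, SE 0.20).

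Of 21 genes for histone gene transcription and 3′ end processing, 3 were lower and none higher (median -0.20), against the same 9.53% of all genes. Slbp, which encodes the protein that binds the stem-loop, had 72.5, 82.5 and 97.5 CPM at 4.5DDC, 45.6, 59.5 and 53.1 at 5.5DDC and 48.2, 41.3 and 35.7 at 6.5DDC. The libraries of 4.5DDC lay above all others (log2 fold change -1.01, SE 0.17, edgeR adjusted p = 0.0055). Upf1, which takes part in the decay of histone mRNAs, and Cpsf1, a subunit of the cleavage complex, were the other 2, at -1.0 and -0.87.

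RNAs without a poly(A) tail and markers of other cells were checked beside these results. Of 16 such non-coding RNAs in the table, Rn7sk alone passed the filter (log2 fold change 0.64, edgeR adjusted p = 0.42). Their summed FPKM was 379, 18.9 and 27.5 in the 3 libraries of 4.5DDC, 201 to 433 at 5.5DDC and 188 to 427 at 6.5DDC, which is lowest in 4.5DDC replicates 2 and 3. In CPM their order differed, with 2.02, 3.73 and 1.67 at 4.5DDC, 2.44 to 3.10 at 5.5DDC and 2.80 to 2.97 at 6.5DDC, so that 4.5DDC replicate 2 was the highest library. The 13 neuron markers summed to 279 to 785 FPKM at 4.5DDC and 502 to 1127 at 6.5DDC, and 2 of them, Syt1 (3.19) and Map2 (1.65), rose, where 9.21% of all genes did. Replicate 1 had the lowest neuron sum at each time point. Of 12 progenitor markers, led by Vim (1791 FPKM) and Fabp7 (546 FPKM), Prom1 itself rose (1.19) and Sox3 fell (-1.80), and of 11 endoderm, crest and mesenchyme markers, 8 of them tested, Twist1 rose (0.74). The median of these 8 was 1.44 and 7 lay above 0, with summed CPM of 84.2 to 209 at 4.5DDC, 122 to 126 at 5.5DDC and 137 to 323 at 6.5DDC, and Twist1 lost its call without any one library of 4.5DDC, without 5.5DDC replicate 2 and without 6.5DDC replicate 1 or 2. Sox3 lost its call without 4.5DDC replicate 2 (-1.19) and without 6.5DDC replicate 1 (-1.76) or 2 (-1.55). Pluripotent cell markers summed to 2.68 to 6.90 FPKM in all libraries, and Pou5f1 and Tdgf1 were listed at 0 in all libraries of 4.5DDC. The part of these in the histone results was not tested.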

How the data were processed

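RNA from Prominin-1-sorted NSCs was analysed in 9 libraries, grouped by the time in the sample labels (one field gives 4.5, 5.5 and 6.5, another 4, 5 and 6 days). The authors sequenced polyA-selected RNA as single-end reads of 50 bases, mapped them to GRCm38 with TopHat2 2.0.4 and deposited counts per gene from HTSeq 0.6.1, of which 98 symbols, none a histone gene, were not whole, so that the table was treated as estimated counts and rounded. The deposited FPKM came from Cufflinks 2.1.1. The deposited log2 values, made with limma by the authors, equal log2 CPM with an offset of 0.5 and were not used in tests. Annotation release, strand setting and treatment of reads with several positions are not given in the sources used here.

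The members, lists and tests were chosen with earlier results of these data known. One edgeR 4.0.16 quasi-likelihood model (R 4.3.3, TMM, filterByExpr, 6 residual degrees of freedom) was fitted to 14742 genes. TMM factors were 0.951 to 1.04. Alternatives used limma 3.58.1, DESeq2 1.42.0, other filters and scalings, a replicate block and libraries left out. The procedure was also run on simulated counts, which had the same spread for all genes and no difference between replicates. That run checks the code, not the error rates in these libraries. Named are members called in any comparison, the 2 of each family and class with the highest mean FPKM, and up to 4 called genes of other lists, and the remaining tested members are also given. Deviations from time point means correlated between same-numbered libraries at 0.733, 0.380 and 0.440 (4.5DDC with 5.5DDC), 0.453, 0.346 and 0.200 (5.5DDC with 6.5DDC) and 0.375, -0.019 and -0.18 (4.5DDC with 6.5DDC), so that the block was read for adjacent time points only. Differently numbered libraries among replicates 2 and 3 correlated at 0.229 to 0.393 there, as much as same-numbered ones, and replicate 1 stands apart from both. Transcripts came from GENCODE M21, which held 87 members, and promoters from RefSeq, which held 87 members, 75 of them with a promoter. Uniqueness was computed over transcripts, not over a genome. Python 3.11.15 with pandas 2.3.3, numpy 2.4.6 and matplotlib 3.10.9 was used for tables and plots. Some genes of the lists were not in the tables and are not analysed here. One gene that the naming rule selects is not reported here.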

Additional observations from a re-analysis of the deposited data

How the results depend on the processing

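The results of the histone genes were recomputed under 16 alternatives and under 1 chosen after seeing the data, replicates 2 and 3 only, in which each time point has 2 libraries. From 4.5DDC to 6.5DDC, 2 clustered genes were called, 1 with limma on log2(FPKM + 0.1) and 1 to 2 with a library left out. The variants called numbered 5, and 4 to 6 with a library left out, 6 with DESeq2 (H1fx added) and 7 with replicates 2 and 3 only (H2afv and H2afy added). In the shorter intervals, where no member was called, DESeq2 called 1 variant in the first and 1 clustered gene and 3 variants in the second. In the second interval 1 variant, H2afx, was called without the filter on low counts, with the replicate block, with replicates 2 and 3 only, and in 0 to 1 cases with a library left out (without 6.5DDC replicate 1). The block changed no other call of a histone gene. The difference between the intervals gave 0 calls in the clustered and variant genes under the alternatives run. Of 612 values of named members, 593 stayed on their side of the threshold, 13 gained a call and 6 lost one. The sign turned in 10, none of them called. Without a filter the median of the clustered genes was -0.14 in the first interval and -0.062 over the whole span, since genes with few counts enter. With TMM-scaled CPM, the variant sum at 5.5DDC was 1908 instead of 1936. With a library left out, the sums were 24.8 to 27.5, 29.96 to 36.9 and 40.8 to 45.1 CPM for the clustered genes and 1851 to 1953, 1923 to 1942 and 1920 to 2017 CPM for the variants. The cause of the other shifts was not tested. Over all genes, the first interval gave 11 calls in edgeR, 495 with DESeq2, 212 with the block and 485 with replicates 2 and 3 only, and the second gave 33, 662, 195 and 729. Leaving out a library gave 1 to 28 calls in the first interval and 0 to 196 in the second. The second interval gave 0 without replicate 2 or 3 of 5.5DDC and without replicate 2 or 3 of 6.5DDC. The whole span gave 2763 calls, 4587 with replicates 2 and 3 only, and 1152 and 1126 without replicate 2 of 4.5DDC and of 6.5DDC. The counts of the other lists over the whole span, recomputed under the same alternatives after seeing the data, were 22 to 26 lower for S phase, 12 to 16 for G2 and M phase, 7 to 12 for chaperones, 5 to 11 for variant placement and 2 to 6 for transcription and 3′ processing, with none higher in any of them, and 2 to 5 higher for neuron markers, 0 to 5 for endoderm, crest and mesenchyme markers and 1 to 2 for progenitor markers. Lower calls numbered 0 to 4 for progenitor markers, 0 to 1 for endoderm, crest and mesenchyme markers and 0 for neuron markers. Variant placement fell to 5 without replicate 2 of 4.5DDC or of 6.5DDC. Sequence features were not recomputed. Counts limit what could be tested in the clustered genes, with 4880 in 9 libraries.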
